A study of Mus musculus with 3 samples.

Results

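Mmp12/Nos2-type cells are myeloid cells of a Treg-depleted mouse melanoma chosen by the summed transcripts of 3 genes. These are the matrix metalloproteinase genes Mmp12 and Mmp13, and Nos2, the inducible nitric oxide synthase gene, which gave 6.13% of the sum. A barcode counted as a cell from 1000 unique molecular identifiers (UMIs, counted transcripts) and 400 genes upward, with mitochondrial UMIs at 10% or less. Members were chosen by their own measured UMIs: they had at least 5 UMIs of Mmp12, Mmp13 and Nos2 together, and more of these than of Retnla and Mrc1 together. By this rule 1178 of 4434 cells of the Treg-depleted tumor were members, 26.6% (95% exact Clopper-Pearson interval 25.3% to 27.9%). They are set against 750 cells of the same tumor, 16.9% (15.8% to 18.1%), with at least 5 UMIs of Retnla and Mrc1 and more of these than of the other 3 genes, called Retnla/Mrc1-type cells. The other 2506 cells passed neither gate.

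The study made 1 single-cell library each from blood of control mice, tumor of control mice and tumor of what the design text calls a Treg-depleted mouse, all from C57BL/6J mice carrying subcutaneous B16F10 melanoma, a transplanted melanoma line. The controls are labelled WT with control treatment. The third library is labelled FoxP3 DTR and treg-depleted: in such mice the receptor for diphtheria toxin is driven from the locus of Foxp3, the master gene of regulatory T (Treg) cells, so that toxin removes those cells. The toxin schedule, the ages, and whether animals were pooled or the control blood and tumor came from the same animals, are not given in the labels, and treatment, allele and library cannot be told apart. All cells were sorted as CD45+ CD90- NK1.1- Ly6G- B220- SigF- and CD11b+ and/or CD11c+, which keeps monocytes, macrophages and dendritic cells. Since each group is 1 library and its cells are not replicates, no difference here carries a test. Levels are CPM, the UMIs of a gene scaled to the total of its class, and intervals are exact Poisson or Clopper-Pearson intervals at 95% that cover counting error only.

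As background, macrophages entering inflamed or injured tissue secrete metalloproteinases: MMP12 is the macrophage elastase, and MMP13 is a collagenase that cuts fibrillar collagen. NOS2 makes nitric oxide from arginine and is a classic product of macrophages stimulated by interferon gamma and microbial signals. Arginase 1, encoded by Arg1, uses the same amino acid to make ornithine and urea and is a textbook product of interleukin 4 signalling, as are Retnla, a secreted resistin-like protein, and Mrc1, the mannose receptor CD206.

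Mmp12 (chr9:7344381-7369499) and Mmp13 (chr9:7272514-7283331, both plus strand, GENCODE M21 on GRCm38) lie side by side in the metalloproteinase cluster of chromosome 9, and Nos2 lies at chr11:78920787-78960254. The sequences shown are the 150 bases before a RefSeq start of each protease gene (GRCm38.p6, plus strand), since these genes define the cells and were often found in the same cell. Capitals mark an AP-1 motif, TGANTCA on either strand, which is bound by FOS and JUN proteins.
Mmp12, chr9:7347224-7347373: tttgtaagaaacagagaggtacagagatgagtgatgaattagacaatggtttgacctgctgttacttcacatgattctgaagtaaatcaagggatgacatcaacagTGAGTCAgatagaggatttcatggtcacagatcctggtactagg
Mmp13, chr9:7272364-7272513: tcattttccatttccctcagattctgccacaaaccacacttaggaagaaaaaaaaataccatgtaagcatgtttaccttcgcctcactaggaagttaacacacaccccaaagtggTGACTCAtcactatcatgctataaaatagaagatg
The match began 44 bases before the start in Mmp12 and 35 in Mmp13. The Mmp12 window lies within an intron of longer annotated Mmp12 transcripts, and the window of the other RefSeq start of that gene held no match. Of 32851 RefSeq promoter windows of this length, 4.24% held the motif. Windows of Mmp3, Mmp10, Il1a and 1 of 2 starts of Serpinb2 also held it, while those of Mmp8, Inhba, Cxcl1, Edn1 and Spp1 did not. A match is a description of letters only.

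Mmp12 gave most of the UMIs that chose the cells. Members held 21766 UMIs of Mmp12 (65.0% of the 3 genes), 9681 of Mmp13 (28.9%) and 2053 of Nos2 (6.13%). At least 1 Mmp12 UMI was found in 1062 members (90.2%), with a median of 11 and a maximum of 274. Mmp13 was found in 812 members (68.9%), with a median of 3 and a maximum of 133. Nos2 was found in 677 members (57.5%), with a median of 1 and a maximum of 25. All 3 genes were found together in 403 members (34.2%), Mmp12 with Mmp13 but no Nos2 in 331 (28.1%), and Mmp12 with Nos2 but no Mmp13 in 190 (16.1%). Only 38 members (3.23%) had Nos2 alone, so nearly all members held protease transcript, and a majority held a Nos2 UMI. With so few Nos2 UMIs per cell, the lack of one does not show that a cell had no Nos2 transcript.

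The values that chose the members are given as a description. The level of Mmp12 was 3950 CPM in members, 155 in Retnla/Mrc1-type cells and 84.5 in cells of neither gate, that of Mmp13 was 1757, 110 and 50.5, and that of Nos2 was 373, 77.9 and 69.9. Retnla stood at 108 CPM in members and 4974 in Retnla/Mrc1-type cells, and Mrc1 at 194 and 995. Members just inside the threshold, with 5 UMIs, numbered 92 (median depth 3547 UMIs), and cells just outside, with 4 UMIs and fewer of Retnla and Mrc1, numbered 98 (median 3640.5). Their levels of Inhba were 899.5 and 743 CPM and those of Arg1 5410 and 5254, so the threshold cuts a continuous range. The classes exclude each other by rule. Both sums were at 5 or more in 184 cells (4.15% of the library), of which 99 were members, and 614 members had no Retnla or Mrc1 UMI. Whether this overlap is less than unrelated sums would give was not tested.

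**Figure D1:**
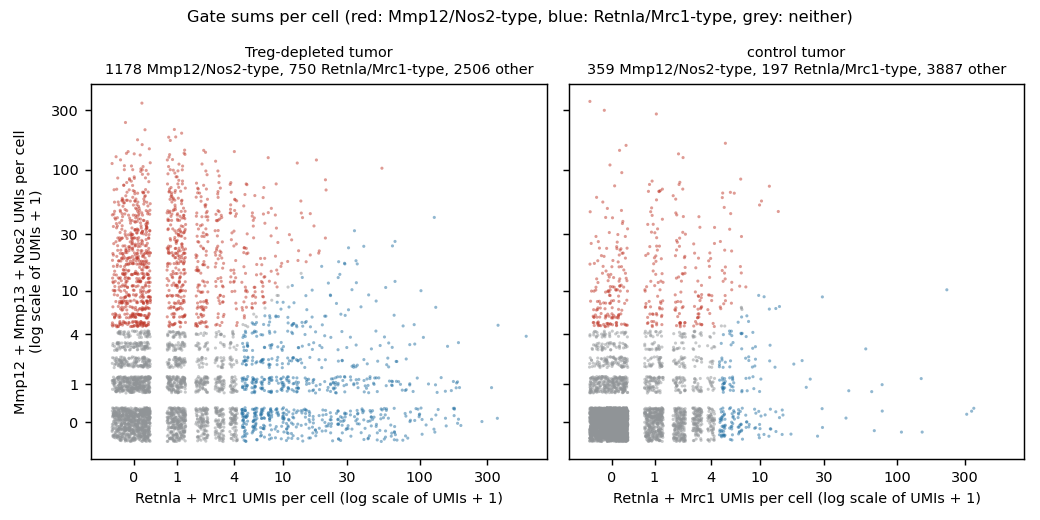
UMIs of Mmp12, Mmp13 and Nos2 per cell (vertical) against UMIs of Retnla and Mrc1 (horizontal), both on a log scale of UMIs plus 1 with points spread at random by up to 0.3 UMIs, in the Treg-depleted tumor (left) and the control tumor (right). Most of the 1178 red cells on the left sit at 0 or few Retnla and Mrc1 UMIs, while the control tumor has 359 red cells.

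Genes of the gate were also set against each other by gating on 1 gene at a time, with every cell thinned to 1000 UMIs for the other genes. Among 1092 cells of the Treg-depleted tumor with at least 3 Mmp12 UMIs (median depth 4147 UMIs), 46.9% had an Mmp13 UMI and 23.7% a Nos2 UMI after thinning. Among 2542 cells with no Mmp12 UMI (median 3634), these shares were 8.46% and 9.21%. Arg1 was found in 88.6% of the former and 63.5% of the latter. Nos2 went with the proteases as well: 48.4% of 399 cells with at least 3 Nos2 UMIs had an Mmp12 UMI, against 21.5% of 3164 cells without one. Of those 399 cells, 88.7% also had an Arg1 UMI, against 64.4% of the 3164 without Nos2, so transcripts of both arginine-consuming enzymes were found together. This was not particular to Nos2: Arg1 was found in 89.5% of cells with at least 3 Retnla UMIs and 90.2% of those with at least 3 Mrc1 UMIs. Another 45 cells were neutrophil-type, with 20 or more S100a8 and S100a9 UMIs and a Csf3r UMI, members left out (median 1755 UMIs). After thinning, 4.44% of them had an Mmp12 UMI, 4.44% an Mmp13 UMI, 0% a Nos2 UMI and 15.6% an Arg1 UMI. Leaving out members removes cells rich in Mmp12, Mmp13 and Nos2, so the shares of these genes are partly fixed by the rule. Whether the Arg1 UMIs came from these cells or from free RNA was not tested. Barcodes with at most 100 UMIs, which hold mostly free RNA, carried Mmp12 at 1390 CPM, Retnla at 1472 and Arg1 at 3551. Single UMIs of any of these can therefore come from outside the cell.

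Arg1, the only marker of these cells outside the gate, was at like levels in members and Retnla/Mrc1-type cells. Arg1 was at 5798 CPM (5734 to 5861) in members and 5658 CPM (5582 to 5735) in Retnla/Mrc1-type cells, a log2 ratio of 0.04, and this turned to -0.01 with a gate of 10 UMIs. It was found in 96.1% of members and 96.8% of Retnla/Mrc1-type cells (88.8% and 90.1% after thinning to 1000 UMIs), but in 71.9% of the cells of neither gate (57.1% after thinning), whose level was 3041 CPM. Both gated classes thus had Arg1 well above the cells of neither gate.

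Members held transcripts of monocyte and macrophage genes, though many of these were lower in them than in other cells of this tumor. Cd68 was at 388 CPM in members, Csf1r at 144 and the monocyte gene Ly6c2 at 609. C1qa was at 249 CPM in members, 449 in Retnla/Mrc1-type cells and 214 in cells of neither gate. Of 20 complement and tumor macrophage genes, 13 were lower in members than in Retnla/Mrc1-type cells, and 13 were higher than in cells of neither gate. Of 13 classical monocyte genes, 11 were lower in members than in each of these classes. Summed markers of T cells were at 0.18 CPM (Cd3e, Cd3g, Cd8a, Cd4 and Foxp3 at 0), of B cells at 0.36, of fibroblasts at 0.18 (Col1a1, Col1a2, Dcn, Pdgfra and Lum at 0) and of NK cells at 2.54. Melanoma markers summed to 35.0 CPM in members, 22.8 in Retnla/Mrc1-type cells and 108 in cells of neither gate. Neutrophil markers, a list that includes Mmp8, summed to 309, 131 and 2025 CPM, and type 1 dendritic cell markers, which include Naaa, to 226, 595 and 405. The plasmacytoid dendritic cell list summed to 404, 388 and 436 CPM, of which Bst2, also on the type I interferon list, gave 398, 386 and 411, while the defining gene Siglech was at 0.54 CPM in members. The other sums in members were 86.0 CPM for mature and 21.4 for type 2 dendritic cells, 37.8 for endothelium, 6.17 for erythroid cells, 2.36 for eosinophils and 0.36 for mast cells and basophils. Median depth was 4065.5 UMIs in members, 4493.5 in Retnla/Mrc1-type cells and 3446 in cells of neither gate, and median mitochondrial shares were 2.71%, 3.37% and 2.44%. A doublet caller was set in advance to flag 157 of the 4434 cells (3.54%). It scored 82 members (6.96%), 35 Retnla/Mrc1-type cells (4.67%) and 40 cells of neither gate (1.60%) as doublets. Of the 99 members with 5 or more Retnla and Mrc1 UMIs it scored 18 (18.2%). The part of doublets in the members, and in those 99 cells, was not tested.

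With the gate genes taken out, members lay nearer to each other than their share of the library gives. Of the 20 nearest neighbours of a member by all other variable genes, 48.1% were members and 12.5% Retnla/Mrc1-type cells, against 26.6% and 16.9% of the library. The other 39.5% of a member's neighbours were cells of neither gate, which made up 56.5% of the library. Only 526 of the 1178 members (44.65%) had a majority of members among their neighbours. For Retnla/Mrc1-type cells, 11.01% of neighbours were members and 51.9% Retnla/Mrc1-type cells.

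Against Retnla/Mrc1-type cells, members held far more transcript of Serpinb2, Inhba, Il1a and Edn1, all genes of secreted or releasable proteins. The highest ratio belonged to Serpinb2, which encodes an inhibitor of plasminogen activators: 160 CPM in members, 14.5 in Retnla/Mrc1-type cells and 31.3 in cells of neither gate, a log2 ratio of 3.46 for the first pair (3.07 to 3.89). Its 882 UMIs came from only 158 members (13.4%), so it marked a minority of them. Inhba, the gene of the activin A subunit, was at 992, 114 and 301 CPM in the same order (8.70-fold, log2 3.12, 2.98 to 3.27) and was found in 841 members (71.4%; 47.3% after thinning, against 8.80% of Retnla/Mrc1-type cells and 13.3% of the neutrophil-type cells). Il1a, the gene of the alarm cytokine interleukin 1 alpha, was at 349, 40.3 and 170.5 CPM. Edn1, the gene of the vessel-constricting peptide endothelin 1, was at 268, 44.3 and 69.9 CPM and was found in 289 members (24.5%). Each of these was highest in members of the 3 classes.

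Of 8430 genes compared, 417 (4.95%) were at least 2-fold higher in members than in Retnla/Mrc1-type cells and 475 (5.63%) at least 2-fold lower. The median gene had a log2 ratio of -0.17, and after scaling by the median gene the counts became 552 higher and 296 lower, so list medians are to be read against -0.17. The rule used this contrast for its 5 genes, which are left out of these counts. The shares of 4.95% and 5.63% are the background of each 2-fold list count against Retnla/Mrc1-type cells below. Against cells of neither gate, 2.27% of 9477 genes were at least 2-fold higher and 5.42% lower.

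**Figure D2:**
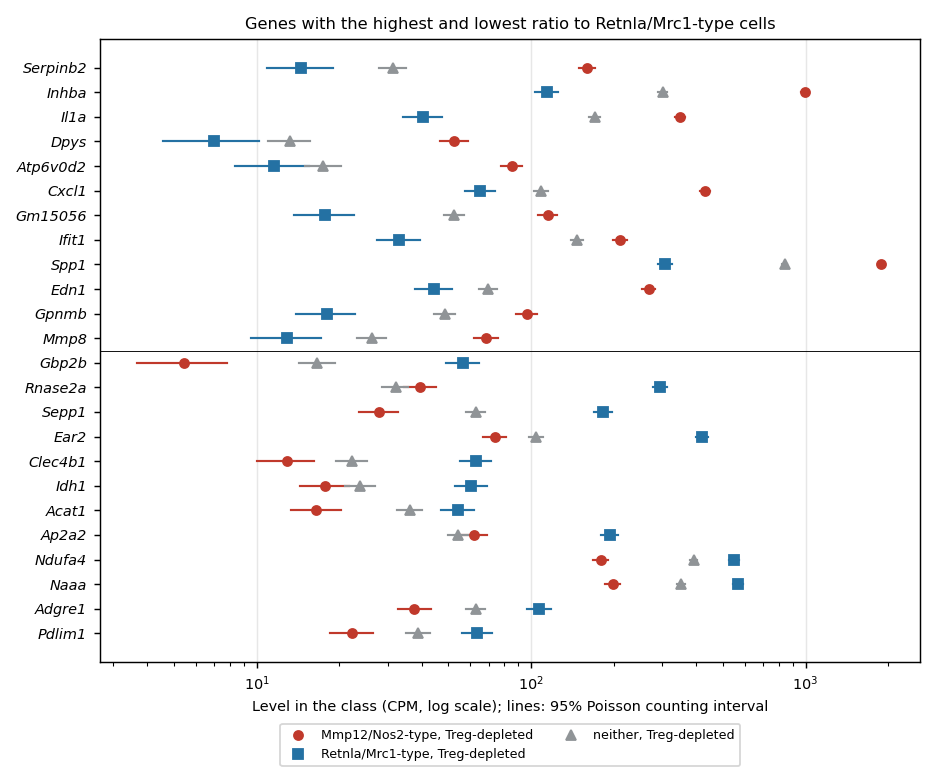
Level (CPM, log axis) of the 12 genes with the highest and the 12 with the lowest ratio of members to Retnla/Mrc1-type cells in the Treg-depleted tumor, with 95% Poisson counting intervals as lines. Red circles (members) lie right of blue squares (Retnla/Mrc1-type) in the upper 12, such as Inhba at 992 against 114 CPM, and left of them in the lower 12, while grey triangles (neither gate) lie mostly between.

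The proteases beside the gate genes showed how selective the pattern was. Of 18 matrix proteases and inhibitors measured, 3 were at least 2-fold higher in members (4.95% of all genes were), namely Mmp8, Ctsk and Serpinb2. At least 2-fold lower were 2 (5.63% of all genes were), and the median log2 was 0.10. Mmp8, the neutrophil collagenase gene of the same chromosome 9 cluster, was at 68.8 CPM in members, 12.9 in Retnla/Mrc1-type cells and 26.3 in cells of neither gate. Of the other cluster genes, Mmp10 had 19 UMIs in 7 members and none in the other 2 classes, and Mmp3 had 10 UMIs in 2 members and none elsewhere in this tumor's cells. Mmp27 was at 0.54 CPM in members and in Retnla/Mrc1-type cells, and Mmp7, Mmp20, Mmp1a and Mmp1b had no UMI in members. Ctsk, the gene of the collagen-degrading cathepsin K, was at 17.8 and 6.72 CPM in members and Retnla/Mrc1-type cells, and Ctsl, a lysosomal cathepsin gene, at 1234 and 1064. The tissue inhibitors of metalloproteinases went the other way: Timp1 was at 60.3 CPM in members and 134 in Retnla/Mrc1-type cells, and Timp2 at 27.6 and 66.4. Over the list 9 genes were higher in members and 9 lower, and Serpinb2, which encodes an inhibitor, was among the higher.

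Genes of cells that attach to and remodel matrix were split. Spp1, which encodes osteopontin, was at 1880 CPM in members and 309 in Retnla/Mrc1-type cells (6.09-fold), Lgals3, the galectin 3 gene, at 10614 and 3944, and Cd9, a tetraspanin gene, at 794 and 169. Fibronectin (Fn1, 301 and 716 CPM) and versican (Vcan, 19.8 and 50.2 CPM) were lower in members. Of 15 genes of matrix proteins and adhesion, 3 were at least 2-fold higher and 2 lower. Of 8 osteoclast and fusion genes measured, 4 were at least 2-fold higher and none lower, with a median log2 of 1.18. These were Atp6v0d2, a proton pump subunit (84.9 and 11.6 CPM), Dcstamp (58.4 and 16.1) and Ocstamp (14.3 and 5.11), which serve cell fusion, and Ctsk. Acp5, the tartrate-resistant acid phosphatase gene of osteoclasts, was at 11.4 and 5.91 CPM, and the calcitonin receptor gene Calcr had no UMI in either class.

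Inflammatory cytokines and NF-kB targets had the highest median of the 18 lists: 14 of 22 were at least 2-fold higher in members than in Retnla/Mrc1-type cells and none lower, with a median log2 of 1.65. Il1b was at 3064 and 808 CPM, Tnf, the tumor necrosis factor gene, at 652 and 150, and Ptgs2, the gene of the prostaglandin enzyme COX-2, at 1049 and 221. Il6 was at 43.2 and 36.3 CPM. Against the cells of neither gate the same list had a median of 0.50, with 5 of 23 at least 2-fold higher (2.27% of 9477 genes were) and 1 lower (5.42% of genes). Ptgs2 was at 420 CPM there and Il1b at 2166. For Il1b, Tnf and Ptgs2, Retnla/Mrc1-type cells had the lowest level of the 3 classes and members the highest.

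Interferon response genes were ordered differently. All 18 type I interferon response genes were higher in members than in Retnla/Mrc1-type cells, 9 of them at least 2-fold, with a median log2 of 1.05 (0.94 with a gate of 3 UMIs). Isg15, a ubiquitin-like antiviral modifier, was at 1697 and 641 CPM, Rsad2, the viperin gene, at 677 and 210, and Ifit1 at 211 and 33.0, though reads of the related Ifit genes can be assigned to one another. Set against cells of neither gate, however, 12 of the 18 were lower in members and the median was -0.25. Irf7, the gene of a transcription factor of this response, was at 176 CPM in members and 257 in cells of neither gate, and Isg15, which was not among the 12, at 1697 and 1657. Interferon gamma response genes stood at a median of 0.26 against Retnla/Mrc1-type cells (1 of 24 at least 2-fold higher, Cxcl10) and -0.52 against cells of neither gate, where 23 of 24 were lower. Gbp2, the gene of a guanylate-binding protein, was at 510, 456 and 912 CPM in members, Retnla/Mrc1-type cells and cells of neither gate. For these genes members stood below the cells of neither gate, although Nos2 is itself a known interferon gamma target.

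**Figure D3:**
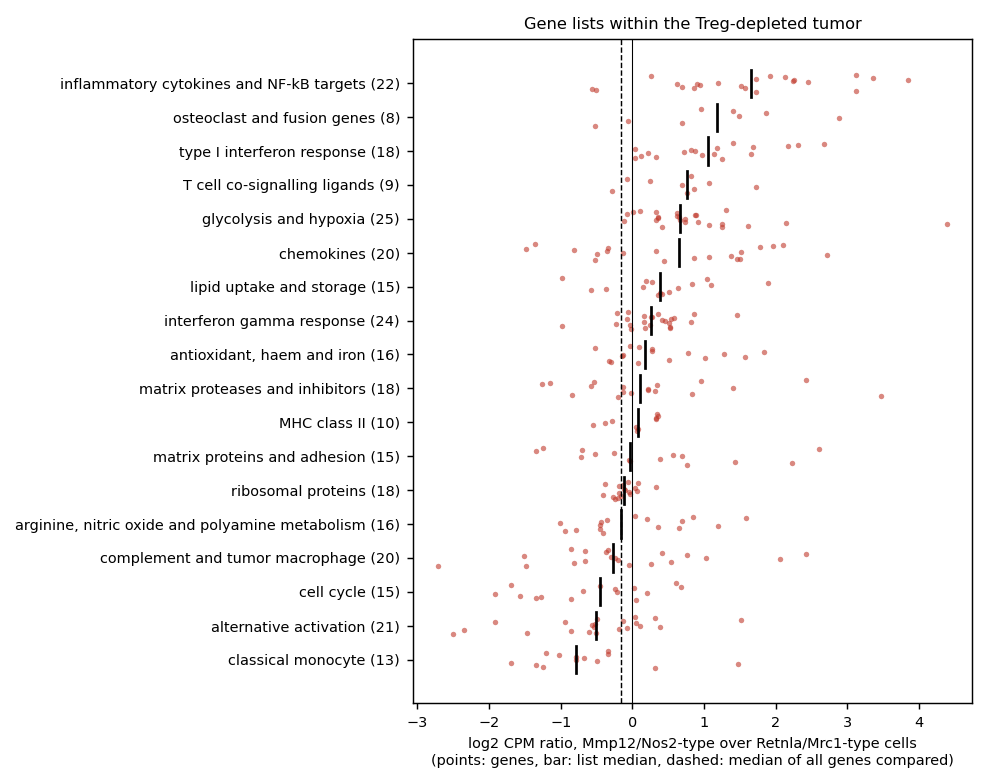
Log2 CPM ratio of members to Retnla/Mrc1-type cells for each gene (red points) of 18 lists, with the list median (black bar), 0 (solid line) and the median of all genes compared, -0.17 (dashed). Numbers in brackets count the genes measured. Inflammatory cytokines and NF-kB targets have the highest median, 1.65, and classical monocyte genes the lowest, -0.78.

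Chemokines differed by family. Of 20, 9 were at least 2-fold higher in members than in Retnla/Mrc1-type cells and 2 lower. The neutrophil-attracting Cxcl1 (430.5 and 65.3 CPM) and Cxcl2 (6057 and 2340) were higher, as was Ccl17, which draws T cells bearing CCR4 (1574 and 550). The monocyte-attracting Ccl2 (2195 and 5634 CPM) and Ccl7 (2303 and 6477) were lower. Ccl24, an eosinophil attractant, was at 5425 and 7608 CPM.

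Genes of glycolysis and hypoxia were higher in members against both other classes. Against Retnla/Mrc1-type cells 23 of 25 were higher, 7 at least 2-fold (4.95% of all genes were), with a median log2 of 0.66. Against cells of neither gate 23 of 25 were higher, 5 at least 2-fold (2.27% of all genes were), with a median of 0.56. Egln3, an oxygen-sensing hydroxylase and hypoxia target, was at 131 CPM in members, 29.6 in Retnla/Mrc1-type cells and 41.0 in cells of neither gate. Ndrg1 was at 402, 193 and 174.5 CPM, Ero1l, an oxidase of the endoplasmic reticulum, at 558, 235 and 264, and the glucose transporter gene Slc2a1 at 224.5, 90.8 and 121.5.

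Genes of arginine metabolism went both ways. Slc7a2, which encodes an arginine transporter, was at 499 CPM in members, 310 in Retnla/Mrc1-type cells and 200.5 in cells of neither gate. Ass1, the argininosuccinate synthase that rebuilds arginine from citrulline, was at 243, 80.9 and 296 CPM, and Sat1, which acetylates polyamines, at 1186, 520 and 825. Odc1, which turns ornithine into putrescine, was at 332, 450 and 266 CPM, and Srm, the spermidine synthase gene, at 10.7, 21.5 and 12.9. Over the 16 genes measured, 2 were at least 2-fold higher and 1 lower than in Retnla/Mrc1-type cells, with a median log2 of -0.16.

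Transcripts of an iron storage gene and a cystine uptake gene were also higher in members, mainly against Retnla/Mrc1-type cells. Fth1, the ferritin heavy chain, was at 25934 CPM in members, 8712 in Retnla/Mrc1-type cells and 19673 in cells of neither gate, and Slc7a11, the cystine transporter gene, at 515, 145 and 421. Of 16 antioxidant, haem and iron genes 4 were at least 2-fold higher than in Retnla/Mrc1-type cells (4.95% of all genes were) and none lower. Against cells of neither gate 1 of 17 was at least 2-fold higher and 2 lower. Among 15 lipid genes the fatty acid carriers Cd36 (670, 315 and 292 CPM) and Fabp4 (54.1, 14.5 and 24.4) and the lipid droplet coat gene Plin2 (1687, 818 and 1228) were at least 2-fold higher than in Retnla/Mrc1-type cells. Among 9 co-signalling ligands Cd86 (243, 116 and 257.5 CPM) and Tnfsf9 (38.3, 11.6 and 18.1) were, while Cd274, the PD-L1 gene, was at 462, 261 and 505.

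Genes lower in members than in Retnla/Mrc1-type cells included Ear2 (73.7 and 419 CPM) and Rnase2a (39.4 and 295), both of the eosinophil-associated ribonuclease family, whose copies are alike enough that reads may be shared. Sepp1, the selenoprotein P gene of tissue macrophages, was at 28.0 and 183 CPM, Adgre1, which encodes the macrophage antigen F4/80, at 37.6 and 107, and Naaa, a lysosomal amidase gene, at 198 and 569. Of 21 alternative activation genes 4 were at least 2-fold lower and 1 higher, with a median log2 of -0.51. Chil3, the chitinase-like gene of that list, was at 2177 and 1757 CPM. Of 13 classical monocyte genes 5 were at least 2-fold lower and 1 higher, with a median of -0.78. Against cells of neither gate 11 of 13 were lower, 8 of them at least 2-fold, at a median of -1.28. Ly6c2 was at 609, 769 and 1478 CPM and Plac8 at 819, 1412 and 3251 in members, Retnla/Mrc1-type cells and cells of neither gate. Of 15 cell cycle genes 5 were at least 2-fold lower in members, among them Top2a at 4.72 and 15.3 CPM, and none higher. MHC class II genes, which present antigen, stood at a median of 0.07 with none at 2-fold, and 18 ribosomal protein genes at -0.12, close to the median gene.

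Set against cells of neither gate, 6 of the 8 genes with the highest ratio were also among the 12 highest against Retnla/Mrc1-type cells, namely Serpinb2, Atp6v0d2, Dpys, Cxcl1, Edn1 and Inhba, and the others were Pdpn, the podoplanin gene (254 and 74.0 CPM), and Cd200, the gene of an inhibitory ligand (138 and 41.0 CPM). The lowest ratios belonged to neutrophil and monocyte genes: Retnlg (2.36 and 57.0 CPM), S100a9 (57.9 and 736), Ifitm6 (8.71 and 105) and Plac8 (819 and 3251). Cells of neither gate include neutrophil-type cells and dendritic cells, whose summed markers are given above.

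Across all 4434 cells, levels differed stepwise with the amount of protease and Nos2 transcript. Cells were binned by Mmp12, Mmp13 and Nos2 UMIs per 10000 UMIs into 0 (1697 cells), up to 5 (873), above 5 to 10 (503), above 10 to 20 (389), above 20 to 50 (403) and above 50 (569, of which 564 were members). Inhba was at 179, 245, 560, 748, 932 and 1152 CPM in these bins. Plac8 ran the other way, at 3319, 2582, 1639, 1130, 692 and 454 CPM, and so did Ly6c2, from 1468 to 372. Edn1 was at 54.2 CPM in the first bin, 171 in the fifth and 486 in the last, so its level was concentrated in the cells with the most protease transcript. Arg1 was at 2985 CPM in the first bin, 5457 in the third and 6386 in the last. The bins use the gate genes and share one library, so the steps are a description.

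**Figure D4:**
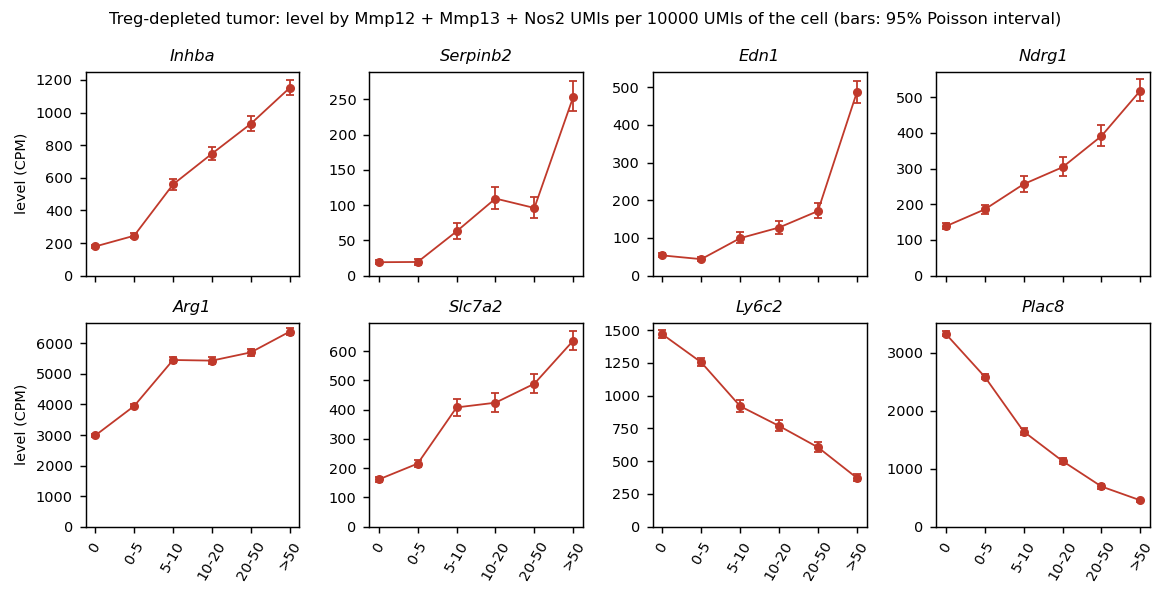
Level (CPM, with 95% Poisson intervals) of 8 genes in cells of the Treg-depleted tumor binned by Mmp12, Mmp13 and Nos2 UMIs per 10000 UMIs of the cell. Inhba is at 179 CPM in the first bin and 1152 in the last, and Plac8 at 3319 and 454.

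Members differed among themselves by gate gene. Over the 1178 members, Spearman's rho between Mmp12 and Mmp13 per 10000 UMIs was 0.26, while Nos2 stood at -0.08 with Mmp12 and -0.09 with Mmp13. All members had to reach 5 UMIs in total, so a cell low in one gene had to be higher in another, and the values are a description of cells of 1 library that share depth. Of 3886 genes found in at least 10% of members, the 3 with the lowest rho with Mmp12 were Plac8 (-0.352), Ifitm3 (-0.325) and Ly6e (-0.309). Mmp13 went with the cathepsin genes Ctsl (0.31) and Ctsb (0.25) and had its lowest rho with H2-DMa (-0.32) and H2-Aa (-0.29), genes of MHC class II presentation. Nos2 went with Ptgs2 (0.25), Ero1l (0.24), Irg1 (0.23), the itaconate synthase gene, and Slc7a2 (0.21).

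The 291 members with at least 3 Nos2 UMIs (median depth 4885 UMIs) were set beside the 501 with none (median 3689), which entered through the proteases alone. Tnfsf15, a cytokine gene of the tumor necrosis factor family, was at 65.1 and 9.14 CPM, Ccl3 at 811 and 329, Edn1 at 415 and 181, Ptgs2 at 1471 and 709 and Serpinb2 at 243 and 107. In the same order Ccl17 was at 763 and 2150 CPM, Ccl22, another CCR4 ligand, at 39.8 and 104, Ccl8 at 1089 and 2402, Ear2 at 32.9 and 101 and Plet1 at 16.4 and 111. Mmp12 was at 3675 and 3871 CPM and Arg1 at 6586 and 4854. S100a9 (21.5 and 87.7 CPM) and S100a8 (79.6 and 175), genes of an inflammatory calcium-binding pair, were lower in the members with Nos2.

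In the control tumor the same gate took 359 of 4443 cells, 8.08% (7.30% to 8.92%), and in blood 0 of 5550, which allows a share of up to 0.0541% by the limit of 3 counts and 0.0664% by the Clopper-Pearson bound. The control tumor library was deeper, with a median of 6452 UMIs per cell against 3820, so a fixed count of 5 UMIs is easier to reach there. With every cell thinned to 1000 UMIs before gating, the shares were 24.7% in the Treg-depleted and 3.56% in the control tumor. Cells taken by the gate had medians of 4065.5 and 13026 UMIs. In the control tumor's gated cells Mmp12 was found in 90.0%, Mmp13 in 52.6% and Nos2 in 21.4%, unthinned and at the greater depth, and all 3 together in 36 cells (10.0%). The level of Nos2 was 373 CPM in members and 35.5 in control gated cells, that of Mmp13 1757 and 276 and that of Mmp12 3950 and 1188. In cells of neither gate the levels were also higher in the Treg-depleted tumor, with Nos2 at 69.9 and 7.29 CPM and Mmp12 at 84.5 and 26.4. Free RNA of barcodes with at most 100 UMIs carried Mmp12 at 1390 CPM in the Treg-depleted and 242 in the control tumor, and its part in these low levels was not tested.

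The direction of most of the 24 named genes was the same in the control tumor, where other cells of another library were compared, but fewer reached 2-fold there. Of the 12 named higher genes 10 were also higher in the control tumor's gated cells than in its 197 Retnla/Mrc1-type cells, 7 of them at least 2-fold (1.58% of 8349 genes were), with a median log2 of 1.32. Serpinb2 was at 54.5 and 9.37 CPM there, Mmp8 at 25.2 and 4.98, Atp6v0d2 at 51.5 and 15.8 and Inhba at 279 and 99.0. Of 11 lower genes measured, 11 were lower, Gbp2b by too little for its counting interval to leave 0, and 3 were lower at least 2-fold (also 1.58% of genes), with Ear2 at 32.0 and 100.2 CPM. Arg1 differed between the classes in the control tumor, at 698 and 279 CPM (log2 1.33, 1.22 to 1.43), unlike in the Treg-depleted tumor. Edn1 and Gm15056 pointed the other way in the control tumor, Gm15056 with only 22 and 18 UMIs. The difference between the tumors was not tested for any gene.

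Members and control gated cells differed in many genes, and so did the 2 tumors as a whole. Of 8743 genes compared, 736 (8.42%) were at least 2-fold higher in members and 902 (10.3%) at least 2-fold lower, or 930 and 520 when cells were gated after thinning. Ccl24 was at 5425 CPM (log2 ratio 7.11) against 39.3 in control gated cells, Chil3 at 2177 against 65.0, Ccl17 at 1574 against 143, Arg1 at 5798 against 698, Slc7a2 at 499 against 34.0 and Edn1 at 268 against 23.6. Apoe, the lipid carrier of tissue macrophages, was at 87.7 CPM against 4489 (log2 ratio -5.68), the complement gene C1qa at 249 against 2211, Il10, an anti-inflammatory cytokine gene, at 5.45 against 133, and Igf1 at 8.89 against 76.1. These differences were not particular to the gated cells: all 24 named genes differed at least 2-fold in the same direction between the tumors' cells of neither gate, and 21 of 24 between their Retnla/Mrc1-type cells. Ccl24 stood at 3530 and 40.2 CPM and Apoe at 184 and 3548 in the cells of neither gate.

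By list, 14 of 20 complement and tumor macrophage genes were at least 2-fold lower in members than in control gated cells and 1 higher, with a median log2 of -1.90. Of all genes in this contrast, 10.3% were at least 2-fold lower and 8.42% higher. All 10 MHC class II genes were lower, 4 of them at least 2-fold (median -0.96), with H2-Aa at 3834 and 6643 CPM. Of 17 cell cycle genes 11 were at least 2-fold lower (median -1.38, or -0.70 when cells were gated after thinning). Among 20 alternative activation genes 9 were at least 2-fold higher and 2 lower (median 0.71), and among 22 inflammatory genes 8 were higher and 3 lower (median 0.69), with Ptgs2 at 1049 and 387 CPM and Tnf at 652 and 276. Interferon gamma response genes were at a median of 0.58, with 8 of 24 at least 2-fold higher and 1 lower. Neutrophil markers summed to 309 and 47.9 CPM, and S100a9 and S100a8 were among the 12 highest ratios, at 57.9 against 1.72 and 147 against 6.29 CPM. The ribosomal RNA-overlapping gene Gm42418 was at 6445 against 1085 CPM, and the part of either in the differences was not tested.

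**Figure D5:**
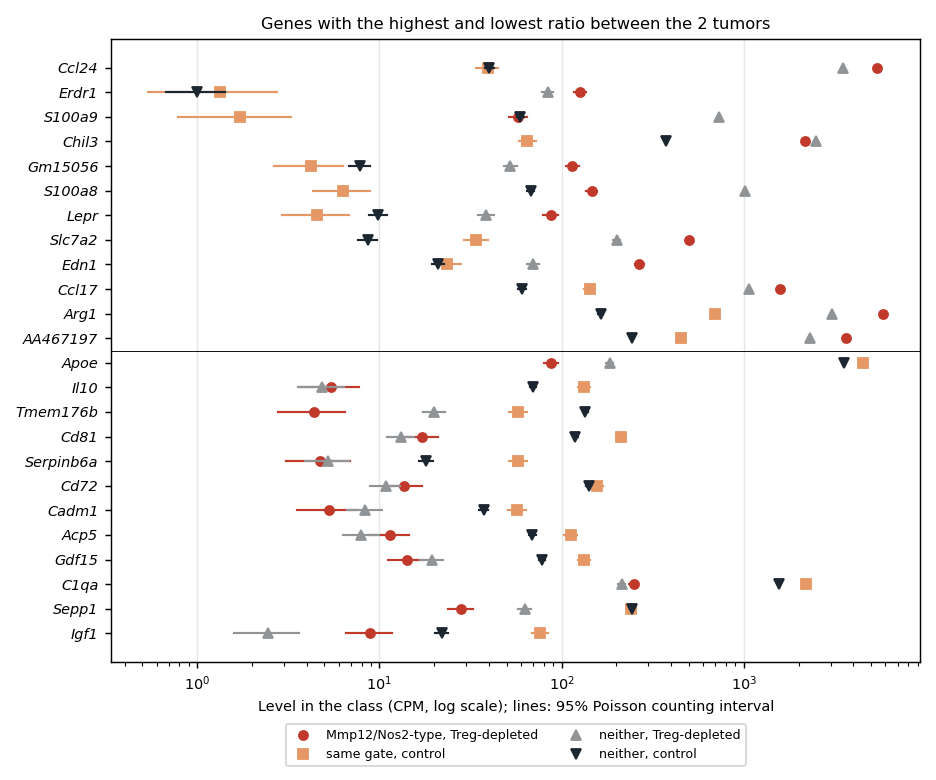
Level (CPM, log axis, with 95% Poisson intervals) of the 12 genes with the highest and the 12 with the lowest ratio of members to the same gate in the control tumor. Members (red) and control gated cells (orange) are shown with the cells of neither gate of each tumor (grey and black), which differ in the same direction in all 24 genes, Ccl24 by 3530 against 40.2 CPM.

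A few barcodes were shared between libraries: 36 cells of the Treg-depleted tumor had the barcode of a control tumor cell and 27 that of a blood cell, of which 6 and 9 were members, and none was gated in both. The Treg-depleted tumor library totalled 23291061 UMIs (83.3% in cells), that of the control tumor 42493416 (91.0%) and that of blood 22944387 (86.4%). Foxp3 had 0 UMIs in the cells of the Treg-depleted tumor and 1 in those of the control tumor, from a sort that removes T cells, and so does not check the depletion.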

How the data were processed

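Libraries were made with the 10x Genomics Chromium 3' v2 kit, per the labels' protocols, and processed with Cell Ranger 1.2 against mm10, per the submitters' processing notes. The authors deposited whole-number UMI counts for 27998 genes and 737280 barcodes in each of 3 libraries, so cells were called anew with the limits stated in the results. Coordinates are from GENCODE M21 (27645 of 27998 identifiers matched). For 65 symbols with several identifiers, the identifier richest in UMIs stands for the symbol.

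Counts were summed over the cells of a class and divided by the class total (CPM). Genes with at least 20 UMIs in either class were compared, and a class with 0 UMIs was set to a floor of 3. Ratios carry exact Poisson intervals and shares Clopper-Pearson intervals, at 95%. With 1 library per group no test was made, and replicate error is unknown. Shares of cells with a UMI were also taken after thinning each cell to 1000 UMIs. A doublet caller (simulated doublets among nearest neighbours) was used as an alternative only. Class totals of 5509742 UMIs (members), 3721240 (Retnla/Mrc1-type cells), 10161644 (neither gate) and 5243104 (control gated cells) place a single UMI well under 1 CPM, but a gene at a few CPM goes uncounted in most single cells.

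Named genes were the 12 highest and 12 lowest ratios (8 against cells of neither gate) among genes reaching 50 CPM and 100 UMIs where they were higher, plus Arg1 and examples from 18 gene lists and 14 lists of other cell types (329 of 332 genes found). The members and lists were chosen with earlier results of these data known. Alternatives were other gate minimums, a wider margin between the sums, stricter depth and mitochondrial limits, doublet removal, thinning before gating, equal weight per cell, other scalings, a higher gene minimum, subtraction of free RNA, and, chosen after seeing the data, leaving out cells with both sums at 5 or more and shared barcodes. The calculation of ratios was checked on class sums simulated with Poisson counting error only. The simulation had no variation between cells or libraries, so it says nothing of that error. Python 3.11, numpy 2.4.6, pandas 2.3.3, scipy 1.17.1, scikit-learn 1.9.0 and matplotlib 3.10.9 were used. The Gm42418, Ifit and eosinophil-associated ribonuclease genes have near-identical or overlapping sequence elsewhere, so the upstream assignment of reads can move them.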

Additional observations from a re-analysis of the deposited data

Results flagged for a closer look

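Edn1, the endothelin 1 gene, differed in opposite directions in the 2 tumors. In the Treg-depleted tumor it was higher in members than in Retnla/Mrc1-type cells, at 268 and 44.3 CPM (log2 2.60, 2.36 to 2.84). In the control tumor the same contrast gave a log2 of -0.65 (-1.02 to -0.29), at 23.6 and 37.2 CPM from 124 and 127 UMIs. Of the named genes measured in both tumors it was the only one with opposite signs and both counting intervals away from 0. Each side has 1 library, and the difference was not tested.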

How the results depend on the processing

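The share of members in the Treg-depleted tumor, 26.6%, was 32.0% with a gate of 3 UMIs, 19.2% with 10, 28.9% among cells with at least 2000 UMIs, 24.7% when cells were gated after thinning and 24.3% without cells with both sums at 5 or more. The control tumor share, 8.08%, was 11.3% with a gate of 3 UMIs, 4.41% with 10 and 3.56% when gated after thinning. With genes of at least 100 UMIs, fewer were compared, and 201 were at least 2-fold higher and 139 lower than in Retnla/Mrc1-type cells (417 and 475 as reported), 93 and 189 against cells of neither gate (215 and 514), and 380 and 393 against control gated cells (736 and 902). Scaling by the median gene left 296 lower than in Retnla/Mrc1-type cells, and gating after thinning left 520 lower than in control gated cells, the cause of which was not tested. The remaining values of these counts and shares lay within 1.5 times or the interval of the reported one. Of 325 values of 25 named genes against Retnla/Mrc1-type cells under 13 alternatives, 324 kept their direction, the exception being Arg1, which ranged from -0.01 to 0.20 on the log2 scale. All 221 values against cells of neither gate and all 338 against control gated cells kept theirs. List medians kept their direction in 222 of 234, 230 of 234 and 222 of 234 values. No paired analysis was possible because each group has 1 library. Precision is limited by depth, with medians of 3820 and 6452 UMIs per cell in the Treg-depleted and control tumors.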
